A study of Rattus norvegicus with 6 samples.

Results

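Corticotropin-releasing hormone (Crh) was followed as 1 gene of 32402 in RNA sequencing of the rat paraventricular nucleus after sodium depletion. The paraventricular nucleus lies in the hypothalamus beside the third ventricle. The gene was the table row ENSRNOG00000012703, chosen by that identifier and not by its values. The table lists Ensembl identifiers without symbols, so the pairing of this row with the name Crh was taken as given and not checked here. All rats were male and of the Holtzman strain, and their age is not given in the labels. The furosemide group was injected acutely with the loop diuretic furosemide at 10 mg/kg and then kept for 24 h on low-sodium food with distilled water. The injection and diet of the control rats are likewise not stated there. Each group held 9 rats, and tissue of 3 rats was pooled for each library, which left 3 control and 3 furosemide libraries. A library therefore shows the mean of 3 rats, and differences between single rats were not measured.

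CRH is the peptide with which the hypothalamus drives the stress hormone axis. Parvocellular neurons of the paraventricular nucleus make it and release it at the median eminence, from where portal blood carries it to the pituitary. There it acts on the receptor CRHR1 of corticotroph cells, which release ACTH, and ACTH makes the adrenal cortex secrete glucocorticoids. Signals through cAMP and the transcription factor CREB raise Crh transcription, and glucocorticoids lower it in these neurons through the glucocorticoid receptor. Other Crh neurons of the nucleus project within the brain. The peptide and its release were not measured here.

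The libraries held 20911950 to 22495415 counts. Expression is given in CPM, that is, counts relative to the library total after correction for library composition by TMM factors between 0.994 and 1.01. Across all genes, 0 of 16344 passed an adjusted p of 0.05 in the edgeR quasi-likelihood test (0%), and 1322 (8.09%) had an unadjusted p under 0.05. Other tools made 45 calls (edgeR exact test) and 0 (limma-voom) on these genes, and DESeq2 made 40 among 22994 genes. The level of a transcript in such tissue follows both the number of cells that make it and the RNA in each cell, and these cannot be told apart. Because identifiers were not paired with symbols, the tissue could not be checked against markers of the nucleus or its neighbours.

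Crh was readily detected in every library, and its mean level in the 2 groups differed by less than the spread between replicate pools. The control libraries averaged 81.2 ± 8.31 CPM (SD, n = 3) and the furosemide libraries 80.1 ± 10.5 CPM (SD, n = 3). The difference of -1.12 CPM was small beside either SD, and the furosemide mean was 98.6% of the control mean. Whether Crh RNA differs 24 h after acute sodium loss is the question this comparison addresses, and no difference was found within the limits given here.

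In the control libraries Crh had 1593, 1719 and 1874 counts, which correspond to 73.8, 79.6 and 90.2 CPM for replicates 1, 2 and 3. In the furosemide libraries it had 1527, 1867 and 1943 counts, or 68.0, 85.3 and 87.0 CPM. The lowest value of all was furosemide 1 and the highest was control 3, so the range of each group reached into that of the other. Groups that did not overlap in this way were found for 13.5% of all genes tested, and Crh was not among them. In order of level the libraries ran furosemide 1, control 1, control 2, furosemide 2, furosemide 3 and control 3. No library was separated from the next in this order by its 95% Poisson interval, an interval that covers counting error only. The furosemide 1 library had the largest total count of the 6 and the lowest Crh level, and the control 3 library had the smallest total and the highest Crh level. The other libraries ran the other way. Their Crh level rose with the total, from control 1 (21443039 counts, 73.8 CPM) to furosemide 3 (22247782 counts, 87.0 CPM). The part of depth in these levels was not tested. Thinning all libraries to the smallest total left the log2 fold change at -0.03. Random thinning keeps the expected CPM of each library, so it cannot decide that question.

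**Figure D1:**
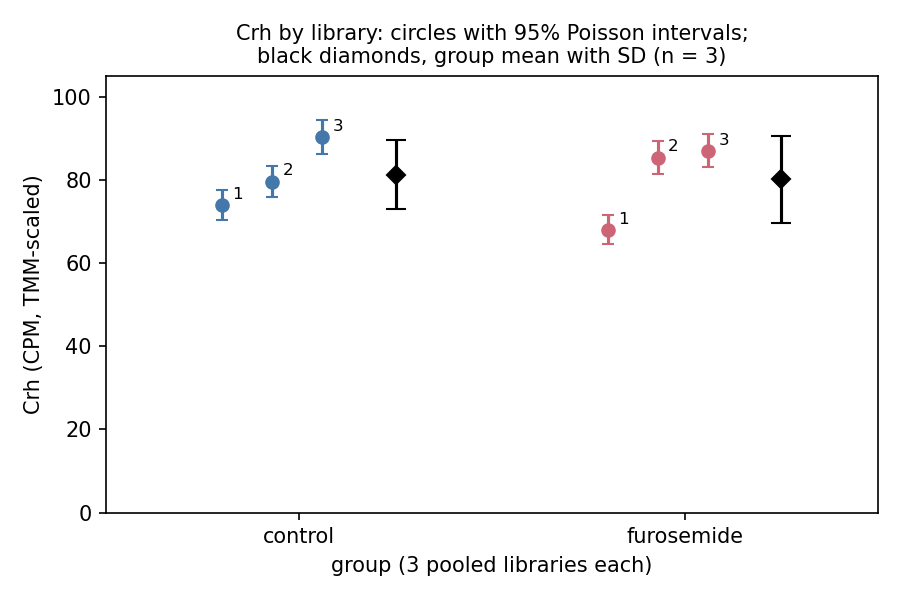
Crh level in CPM (vertical axis, from 0) for each of the 3 control and 3 furosemide libraries, numbered by replicate. Circles carry 95% Poisson intervals and black diamonds give the group mean with its SD. The control libraries lie between 73.8 and 90.2 CPM and the furosemide libraries between 68.0 and 87.0 CPM.

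The edgeR quasi-likelihood test, fitted on all genes, put the log2 fold change of Crh, furosemide over control, at -0.02 (standard error 0.08). The 95% interval ran from -0.20 to 0.16, that is from 0.870-fold to 1.12-fold (unadjusted p = 0.817, edgeR adjusted p = 0.981). Crh ranked 13615 of 16344 genes by p. A two-sided exact permutation test on mean log2 CPM gave p = 0.9, where 0.1 is the smallest value that 3 libraries against 3 allow. These values do not show that Crh RNA was equal in both groups. They show that a change of 1.5-fold in either direction lay outside the interval, as it did for 85.1% of all genes tested. Among genes with a mean within 2-fold of that of Crh it did so for 4235 of 4240 (99.9%).

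The width of that interval moved in both directions between the alternative fits, which differ in several ways, and the cause was not tested. The gene-wise biological coefficient of variation of Crh was 7.09%, against 3.73% on the trend at its level. The quasi-likelihood fit took the trend value and not the 7.09%. The fit also gives each gene a quasi-likelihood dispersion from the spread between its libraries, which it draws towards that of genes at a like level. With robust dispersions, which draw unusually variable genes less far, the interval widened to -0.35 to 0.31 on the log2 scale. DESeq2 gave -0.30 to 0.26. Other fits narrowed it, to -0.16 to 0.12 without a low-count filter and to -0.13 to 0.08 with a replicate block, although the replicate numbers are not read as pairs. Over all 18 alternatives the lowest bound was 0.786-fold and the highest 1.24-fold, with no interval for the edgeR exact test. Crh passed the adjusted threshold in 0 of the 18, and its adjusted p lay between 0.817 and 1.

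The sign of the small difference was set by single libraries. Without furosemide 1 the log2 fold change of Crh was 0.09, and without control 3 it was 0.06, both above 0. Without control 1 it was -0.08, without control 2 it was -0.04, without furosemide 2 it was -0.07 and without furosemide 3 it was -0.08. The edgeR adjusted p in these 6 fits was 0.817 to 0.969. No direction is therefore given for Crh.

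**Figure D2:**
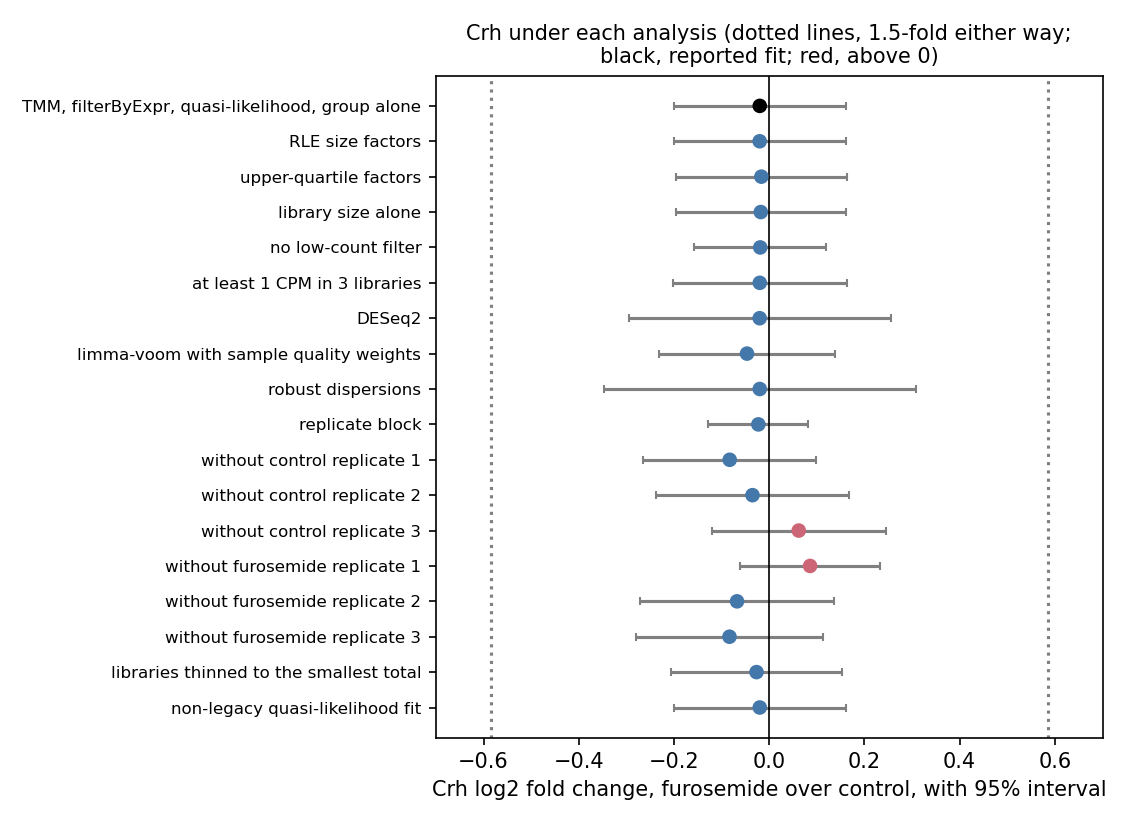
Log2 fold change of Crh, furosemide over control (horizontal axis), with its 95% interval for the reported fit and for each alternative that gives one. All intervals include 0 and lie inside the dotted lines at 1.5-fold. The fits without furosemide 1 and without control 3 are the ones above 0.

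The absolute difference in log2 CPM had a median of 0.24 over the 6 pairs within a group and ranged from 0.03, between furosemide 2 and 3, to 0.36, between furosemide 1 and 3. For the 9 pairs of a control with a furosemide library the median was 0.13, with a range of 0.05 to 0.41. The Poisson intervals of the 2 libraries were separate in 4 of the 6 pairs within a group and in 4 of the 9 pairs between groups. Without furosemide 1 the medians came to 0.14 over 4 pairs within a group and 0.11 over 6 pairs between groups. Without control 3 they were 0.22 and 0.17, and without control 1 they were 0.25 and 0.11. The size of the gap thus rested on single libraries, and the median between groups stayed the lower without any 1 library.

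**Figure D3:**
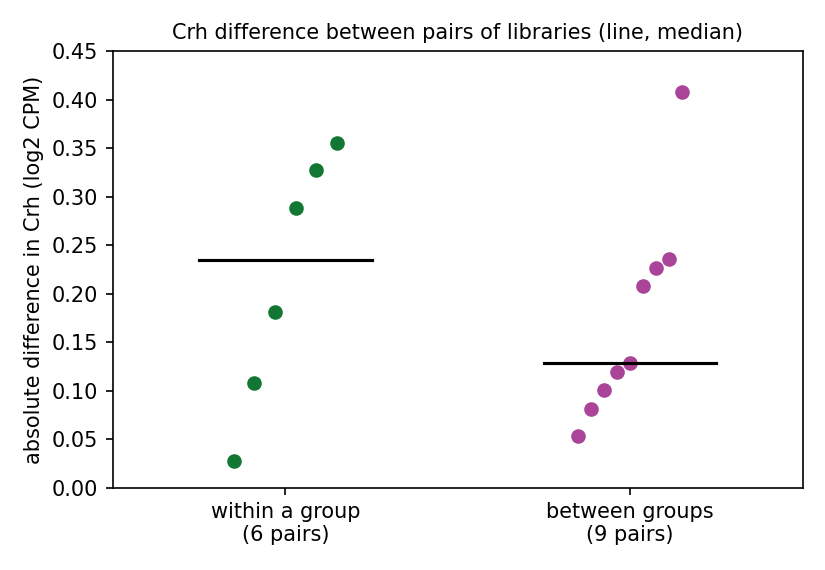
Absolute difference in Crh log2 CPM (vertical axis) for the 6 pairs of libraries within a group and the 9 pairs between groups, with the median as a line. The median was 0.24 within groups and 0.13 between them, and 0.14 and 0.11 without furosemide 1.

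With all 3 libraries, the spread of Crh in each group was above counting noise. The coefficient of variation of Crh was 10.2% in controls and 13.1% after furosemide, where counting alone would give 2.41% and 2.37%. The variance between libraries was 18.1 times the Poisson variance in controls and 30.6 times after furosemide. The highest library of a group stood 1.22-fold above the lowest in controls and 1.28-fold after furosemide. The furosemide values rested on furosemide 1. Without it the coefficient of variation over the other 2 libraries was 1.36%, below the 2.29% of counting noise, and the variance was 0.352 times the Poisson variance. Leaving out furosemide 2 or 3 instead gave 52.0 and 43.3 times. In controls the variance stayed above the Poisson variance without any 1 library, at 14.1 times without control 1, 34.5 times without control 2 and 4.61 times without control 3.

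Crh was also among the genes whose replicate pools differed most at its level. The SD within groups, pooled over both, was 0.17 on the log2 CPM scale. There were 4240 genes with a mean within 2-fold of that of Crh, between 40.3 and 161 CPM, and their median SD was 0.05. Crh lay at the 99.2 percentile of these genes, and 34 of them had a larger SD. In the 3 controls alone the SD of Crh was 0.15, with 78 genes above it, and in the 3 furosemide libraries 0.20, with 27 above it. Without control 3 the control SD was 0.08, with 896 genes above it, against a median of 0.04. Without furosemide 1 the furosemide SD was 0.02, below the median of 0.04 for genes at this level, and 3120 genes had a larger one. The high spread of the furosemide group was thus that of 1 library. Without furosemide 1 the SD pooled over both groups was 0.12, at the 96.4 percentile of 4170 genes with 148 above it. Leaving out any other library placed the pooled SD of Crh between the 99.0 and 99.5 percentiles. Its interval for the fold change was also wide, with a half-width of 0.18 against a median of 0.09 for genes at its level. These percentiles are descriptions, since SDs from 3 libraries a group are themselves imprecise.

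**Figure D4:**
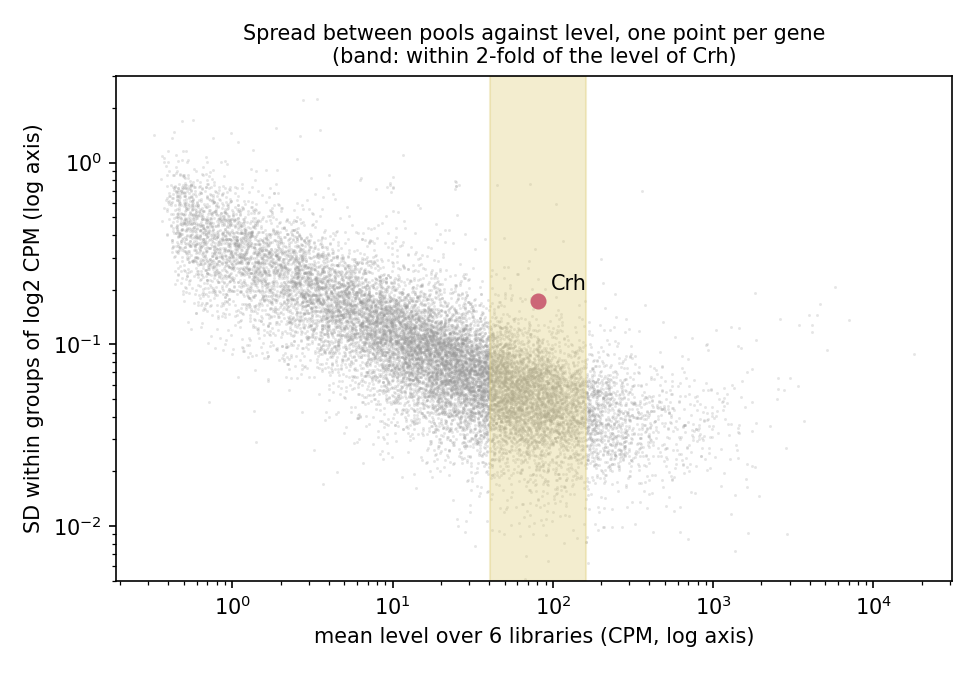
SD within groups of log2 CPM (vertical log axis) against the mean level over the 6 libraries (horizontal log axis), 1 point per gene for the 16344 genes tested. The band marks the 4240 genes within 2-fold of the level of Crh, where Crh at 0.17 lies above the median of 0.05.

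The genes of still larger spread at this level had correlations with Crh centred near 0, as had all genes at this level. For the 34 genes with a larger SD at its level, the Pearson correlation of log2 CPM with Crh over the 6 libraries had a median of -0.03 and ranged from -0.82 to 0.67. None of the 34 (0) exceeded 0.9 or lay below -0.9. For all 4239 other genes at this level the median was 0.05, with a range of -0.98 to 0.99. Of these, 19 exceeded 0.9 and 21 lay below -0.9. With so small a share over all, 0 of 34 does not set the genes of larger spread apart. All such values share the same 6 libraries and their depths, and are given as a description.

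Among the 10655 other genes that averaged 10 CPM or more, the 2 whose pattern was most like that of Crh were ENSRNOG00000048719 and ENSRNOG00000019965. Their Pearson r of log2 CPM over 6 libraries was 0.990 and 0.987. ENSRNOG00000048719 stood at 22.5, 22.7 and 23.4 CPM in controls and at 21.8, 23.1 and 23.2 CPM after furosemide. It ranked the libraries much as Crh did, but its highest value was only 1.07-fold above its lowest, and its coefficient of variation of 2.59% was below the 4.49% of counting noise. ENSRNOG00000019965 stood at 19.9, 21.1 and 22.9 CPM in controls and at 18.6, 22.8 and 23.1 CPM after furosemide. Its highest value was 1.24-fold above its lowest, against 1.33-fold for Crh, and its coefficient of variation was 8.66% against 4.63% from counting. Neither gene passed the test between groups, with edgeR adjusted p of 0.987 and 0.988, and of all genes 0 of 16344 passed. Their choice for likeness to Crh, whose group means were close, made a small difference likely. These values are therefore a description only.

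A close match of this kind was usual for 6 libraries. The highest r that a gene reached with any other had a median of 0.991 over all genes of at least 10 CPM, and that of Crh was 0.990. Crh had 61 genes with r above 0.9, and the median gene had 82. Of the 554 genes whose range was at least as wide as that of Crh, 2 had r above 0.9 and 3 had r below -0.9. Over all 10655 genes compared, 61 lay above 0.9 and 52 below -0.9. The comparison by range was chosen after the values were seen.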

How the data were processed

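RNA of the paraventricular nucleus was sequenced from 6 libraries, each a pool of 3 rats. Per the labels' protocols, RNA was extracted with QIAzol and RNeasy columns and libraries were made with a TruSeq mRNA kit, which selects polyadenylated RNA. The authors deposited raw counts per Ensembl gene as whole numbers. Per the submitters' processing notes, the tools were FastQC, TopHat, HTSeq and edgeR. Their versions, the genome build, the annotation and the use of strand are not given there or elsewhere in these sources, and coordinates are left out.

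Columns were assigned to libraries by group and replicate number in their names, and 0 columns were left over. Genes were kept by filterByExpr (16344 genes, 99.9% of counts), scaled by TMM and tested with glmQLFit and glmQLFTest in edgeR 4.0.16 under R 4.3.3, with group as the only term and Benjamini-Hochberg adjustment over all genes at 0.05. The standard error is the log2 fold change divided by the square root of F, and 95% intervals used the moderated degrees of freedom. Alternatives were other size factors and filters, DESeq2 1.42.0, limma-voom with limma 3.58.1, the edgeR exact test, robust dispersions, a replicate block, thinning and leaving out each library. The non-legacy fit and all values of the spread of Crh, with and without each library, were added after seeing the data.

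The rule for names took Crh whatever its result, listed genes of its pathway, and the genes of at least 10 CPM with the highest r with Crh. For want of symbols (0 of 32402 identifiers paired, also by the reference gene table), the latter were limited to 2, and the 8 pathway and 13 marker lists were not described. Crh and the lists were chosen with earlier results of these data known. No libraries were copies: the squared difference between libraries of 1 group was at least 1.70 times sampling noise. The labels give separate rats for each pool, so p-values set the group difference against the variation between pools. In the quasi-likelihood test that variation is moderated across genes. The labels give no dates or batches, so a batch that ran along with group could not be told apart from furosemide.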

Additional observations from a re-analysis of the deposited data

How the results depend on the processing

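For Crh, 16 of the 18 alternative fits kept a log2 fold change below 0 and 2 gave one above 0, with none (0) past the adjusted threshold. The 12 alternatives that used all libraries gave -0.05 to -0.02. Leaving out 1 library gave -0.0834 (without furosemide 3) to 0.0859 (without furosemide 1), with 0.0621 without control 3. The difference in mean log2 CPM, -0.02 with all libraries, ran from -0.0900 (without control 1) to 0.0898 (without furosemide 1), with 0.0545 without control 3. Two-sided exact permutation p-values without 1 library were 0.5 to 0.8. The number of genes past the adjusted threshold, 0 in the edgeR quasi-likelihood test, was 28 without a low-count filter, 40 in DESeq2, 45 in the edgeR exact test, 4 with robust dispersions and 1 with the replicate block. Leaving out 1 library gave 0 to 17 genes, the most without control 1. The cause was not tested. DESeq2 gave 689 genes with an unadjusted p under 0.05, and the other alternatives 1082 to 1568.

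With the replicate block the log2 fold change of Crh was -0.02 (edgeR adjusted p = 0.948). Over all genes, the deviations of same-numbered libraries from their group means had correlations of -0.02, -0.01 and -0.09, and 0 of the 6 correlated best with the library of its own number. The numbers are therefore not read as pairs. Scaling Crh to Sim1 and Otp, and all tests of the gene lists, were not run for lack of symbols. Crh had 1527 or more counts in each library, where counting alone gives a coefficient of variation of 2.27% to 2.56%.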
